A study of Mus musculus with 12 samples.

Results

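The immunoglobulin clusters and the joining chain were followed in mouse lung after bleomycin in mice with and without Fra-1, a subunit of the AP-1 transcription factor. They were chosen by name: every transcript cluster of the array whose symbol field held at least 1 symbol beginning with Igh, Igk or Igl (Ighmbp2 and Iglon5 left out), together with Jchain. This gave 33 clusters of the 23410 clusters with a gene symbol: 10 heavy-chain clusters, 19 kappa and 2 lambda light-chain clusters, Jchain, and Igll1, which encodes a surrogate light chain. A transcript cluster is the array's unit for one gene. Of the 33 clusters, 17 carried 1 symbol and 16 carried several, and the value of a cluster with several symbols is given here to no single gene. The clusters also share sequence: by their accessions they formed 21 linked groups, the largest of 7 clusters, so they do not count as independent measurements.

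Antibodies are built from paired heavy and light chains, each with a variable segment that binds antigen and a constant region. The constant region of the heavy chain sets the class. Ighm encodes the constant region of IgM, Ighg3 that of IgG3 and Igha that of IgA, and Igkc is the constant region shared by all kappa light chains. Jchain links IgM and IgA into polymers, which the receptor encoded by Pigr carries across epithelia. B cells make membrane forms of these chains, plasma cells secrete them in bulk, and each B cell clone uses its own rearranged heavy and light variable segments.

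RNA of the left lung was hybridised from 12 mice, 3 in each of 4 groups. KOT were bleomycin-treated Fra-1-/- mice, WTT bleomycin-treated Fra-1+/+ mice, KOC Fra-1-/- mice given PBS and WTC Fra-1+/+ mice given PBS. Each mouse received 30 µl into the trachea, with 0.075 U of bleomycin in the treated groups, and lungs were taken at 5 days; the labels give a C57/129S background, female mice and an age of 2 months. According to the methods both genotypes carry a floxed Fra-1 allele on both chromosomes, and the Fra-1-/- mice also carry the Meox2 (Sox2)-Cre transgene, active in the embryo but not in extra-embryonic tissue, so that loss of Fra-1 and presence of Cre cannot be told apart. The methods give a higher age than the labels.

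Fosl1, the gene of Fra-1, lay at a log2 expression of 7.28 to 7.33 in KOT and 7.81 to 8.32 in WTT, against 6.26 to 6.68 in KOC and 6.37 to 6.86 in WTC, so the genotypes did not overlap after bleomycin (-0.80, adjusted p = 0.160) and overlapped after PBS. Which part of Fosl1 the array reads is not given in the sources used here. Array medians lay between 7.14 and 7.22. The mean of 6 lung markers (among them Sftpc and Ager) was 12.63 to 12.87 in the bleomycin mice and 13.01 to 13.15 in the PBS mice. Of these 6, 4 were called lower in WTT than in WTC (11.3% of all clusters). In KOT against KOC 3 of them were (7.98% of all clusters). In 12 of 12 arrays Y-linked genes lay above Xist, which does not match the label female. H2-Ea, an MHC class II chain that some inbred strains lack, lay at 11.58 to 11.79 in KOT against 5.20 to 5.83 in WTT, and at 11.34 to 11.80 in KOC against 5.71 to 6.01 in WTC. Its part in the results below was not tested. All Fra-1-/- mice and WTC 76 had animal numbers under 100, and all other Fra-1+/+ mice had numbers above it, so after bleomycin genotype and animal number cannot be told apart.

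Jchain has a cluster of its own, with no other symbol. Its log2 expression was 11.37, 11.01 and 10.74 in KOT mice, against 6.90, 6.85 and 7.53 in WTT mice. In KOC mice it was 10.06, 9.92 and 12.11, against 11.81, 10.44 and 9.02 in WTC mice. The 3 WTT mice lay below all 9 other mice, and the other 3 groups overlapped. WTT was lower than WTC by 3.33 on the log2 scale (fold change -3.33, SE 0.66, limma with Benjamini-Hochberg adjusted p = 0.00461). KOT minus WTT was 3.95 (SE 0.66, 95% interval 2.51 to 5.38), about 15.4-fold, with an adjusted p of 0.0918, which does not pass 0.05. KOC minus WTC was 0.27 (95% interval -1.16 to 1.71) and KOT minus KOC 0.34 (95% interval -1.09 to 1.78), neither past the threshold. The first of these intervals still allows more than a doubling in either direction.

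**Figure D1:**
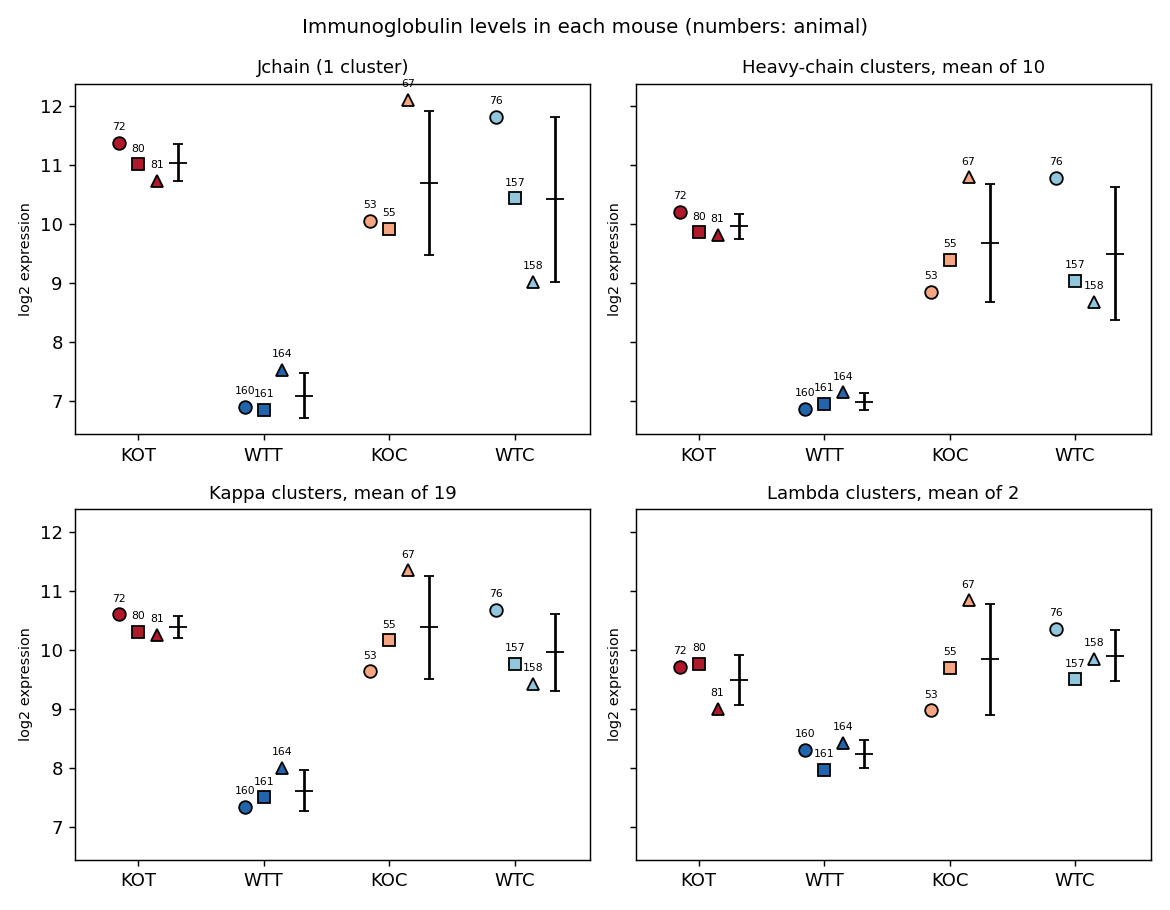
Log2 expression (y axes, 1 scale for all panels) of Jchain and the mean over the heavy, kappa and lambda clusters in each mouse, with animal numbers beside the points. Horizontal marks with bars are the group mean ± SD (n = 3). In all 4 panels the WTT mice lie lowest, and KOC 67 and WTC 76 lie highest of their groups.

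Because Jchain moved with the antibody chains, the 250 bases before its annotated start are shown, from RefSeq (GRCm38.p6, chr5:88527898-88528147, minus strand). Those of Igll1, the 1 other set member with an entry (2 of 33 symbols matched), stand beside them as the member that hardly varied (chr16:16863986-16864235, minus strand), with capitals marking the only motif found.
Jchain: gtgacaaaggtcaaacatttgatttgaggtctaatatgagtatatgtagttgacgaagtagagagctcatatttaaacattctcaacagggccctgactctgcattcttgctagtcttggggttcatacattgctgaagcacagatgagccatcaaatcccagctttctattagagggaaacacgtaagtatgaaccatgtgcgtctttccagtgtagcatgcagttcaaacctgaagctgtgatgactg
Igll1: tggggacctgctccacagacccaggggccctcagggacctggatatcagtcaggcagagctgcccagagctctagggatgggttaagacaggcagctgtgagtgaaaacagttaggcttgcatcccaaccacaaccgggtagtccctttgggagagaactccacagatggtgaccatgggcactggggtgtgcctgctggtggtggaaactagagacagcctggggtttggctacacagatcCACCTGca
Both strands were searched for the octamer ATGCAAAT, the AP-1 site TGANTCA and the E box CAGGTG. The Jchain window held none of them, and the Igll1 window held 1 E box, read as CACCTG, at -8 to -3. Of 32851 promoter windows of this length, 1.60% held the octamer, 6.75% the AP-1 site and 17.2% the E box. A match or its absence in these letters says nothing of binding.

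The first question is how bleomycin changed these transcripts in Fra-1+/+ lungs. Immunoglobulin clusters fell: 25 of 33 were lower in WTT than in WTC at a limma adjusted p under 0.05 and none was higher, where 11.3% of all clusters were called lower. By class these were 8 of 10 heavy, 14 of 19 kappa and 2 of 2 lambda clusters and Jchain. The median difference, WTT minus WTC, was -2.66 (log2) over the 33 clusters, -2.72 over the heavy, -2.55 over the kappa and -1.67 over the lambda clusters, against 0.02 over all clusters. In 30 of 33 clusters every WTT mouse lay below every WTC mouse, a pattern that 17.4% of all clusters showed. In 29 of 33 every WTT mouse lay below all 9 other mice, as in 3.39% of all clusters, the exceptions being Igkv4-91, Igkv19-93 (10545177), Igll1 and cluster 10538871, which holds Igkv1-133 and Igkv1-135. The local-pooled-error (LPE) test named in the methods, at an adjusted p under 0.01, called 31 lower, against 4.47% of all clusters. In bulk lung RNA, fewer antibody-producing cells and less antibody RNA per cell cannot be told apart.

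Heavy chains were read by 10 clusters, all of which hold a constant-region symbol. The mean over the 10 was 10.20, 9.86 and 9.82 in KOT mice, against 6.87, 6.95 and 7.15 in WTT mice. It was 8.86, 9.40 and 10.79 in KOC mice, against 10.78, 9.04 and 8.68 in WTC mice. Again the WTT mice lay below all others, and this held in each of the 10 clusters.

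Ighm had 3 clusters of its own, which differed in level and were all lowest in WTT. Cluster 10402864 read 10.16, 9.58 and 9.44 in KOT and 7.36, 7.46 and 7.77 in WTT, against 9.08, 9.20 and 10.49 in KOC and 10.41, 8.99 and 8.90 in WTC. WTT minus WTC was -1.90 (SE 0.42, adjusted p = 0.00859) in this cluster, -2.89 (SE 0.82, adjusted p = 0.0271) in cluster 10402991 and -3.28 (SE 0.80, adjusted p = 0.0131) in cluster 10403069. All 3 Ighm clusters thus fell in WTT. The calls of the heavy class dropped to 4 of 10 without WTC 76, the highest WTC mouse in each Ighm cluster, to 4 without WTT 161, and to 5 without WTT 160 or without WTT 164. Over all clusters the 5027 calls became 4370, 3492, 5211 and 3386 in these fits.

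Igha, of the antibody class secreted at mucosal surfaces, had 2 clusters of its own that gave nearly equal differences. Cluster 10403034 read 10.81, 11.92 and 10.67 in KOT and 7.88, 7.97 and 8.20 in WTT, against 8.68, 10.83 and 11.79 in KOC and 12.12, 9.78 and 10.13 in WTC. WTT minus WTC was -2.66 (SE 0.73, adjusted p = 0.0235) there and -2.74 (SE 0.72, adjusted p = 0.0198) in cluster 10403063. Both Igha clusters thus fell in WTT. After bleomycin, KOT minus WTT was 3.12 in both Igha clusters (adjusted p = 0.227 and 0.217), with no overlap of KOT and WTT.

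Ighg3 stood apart from the other heavy chains in the PBS mice. Its own cluster, 10403046, read 7.48, 5.72 and 9.12 in KOT and 5.13, 5.32 and 4.88 in WTT, against 9.59, 6.91 and 8.56 in KOC and 6.38, 5.78 and 5.57 in WTC. All 3 KOC mice lay above all 3 WTC mice (difference 2.45, SE 0.76, 95% interval 0.79 to 4.11), but the adjusted p was 0.414. WTT minus WTC was only -0.80 (SE 0.76, adjusted p = 0.516), with WTC itself near the low end. KOT minus WTT was 2.33 (SE 0.76, adjusted p = 0.336). The KOT values spanned from the WTC range upwards, so that KOT 80 lay below WTC 157.

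Of the 4 heavy clusters with several symbols, 2 hold Ighg3, Igha and the same variable segments, and these 2 were the heavy clusters called between genotypes after bleomycin. Cluster 10403018 read 12.59, 11.74 and 11.70 in KOT mice, against 7.85, 8.31 and 8.35 in WTT mice, a difference of 3.84 (SE 0.54, adjusted p = 0.0367). Cluster 10403015 read 11.99, 11.39 and 11.09 in KOT mice, against 7.996, 8.12 and 8.31 in WTT mice, a difference of 3.35 (SE 0.45, adjusted p = 0.0329). Both also fell in WTT against WTC, by -3.10 (adjusted p = 0.00238) and -2.71 (adjusted p = 0.00194). The remaining pair hold Igha with a variable segment: cluster 10403009 fell in WTT (-3.07, SE 1.00, adjusted p = 0.0469), and cluster 10403021 gave -1.97 (SE 0.85, adjusted p = 0.128).

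**Figure D2:**
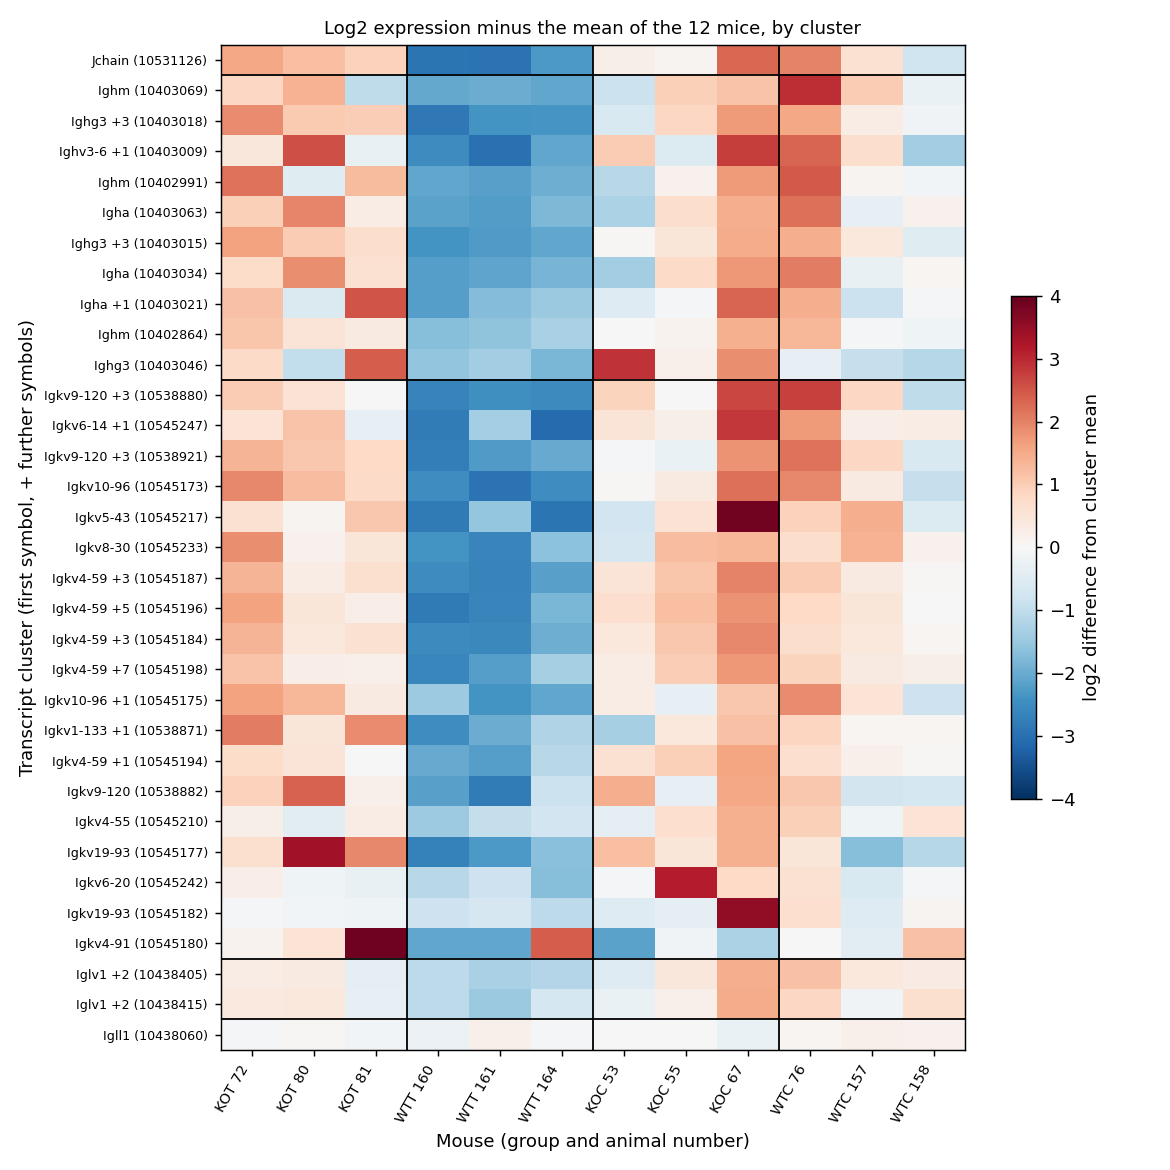
Log2 expression of each of the 33 clusters (rows, named by first symbol and number of further symbols) in each mouse (columns), minus the mean of that cluster over the 12 mice; black lines part the groups and the classes. The WTT columns are blue in nearly every row, with WTT 164 in Igkv4-91 and the Igll1 row as exceptions.

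The kappa clusters were likewise lowest in WTT. Their mean over 19 clusters was 10.60, 10.30 and 10.25 in KOT mice, against 7.34, 7.50 and 8.004 in WTT mice. It was 9.63, 10.16 and 11.35 in KOC mice, against 10.68, 9.76 and 9.42 in WTC mice. Kappa means of the WTT mice lay below those of every other mouse.

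The 4 kappa clusters that hold Igkc had a pooled within-group SD of 0.51 to 0.58, while that of the 15 other kappa clusters ran from 0.46 to 1.78 with a median of 0.95. These 4 clusters are linked by accession, so their SDs are not independent. The 10 heavy clusters, which also hold a constant region, had a median SD of 1.09. Cluster 10545187 read 11.80, 10.71 and 11.07 in KOT and 7.91, 7.74 and 8.25 in WTT, against 10.93, 11.54 and 12.41 in KOC and 11.44, 10.80 and 10.47 in WTC. Every WTT mouse lay more than 2 log2 units below the lowest other mouse.

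All 4 Igkc clusters fell in WTT against WTC, by -2.55 to -2.93 (log2), with adjusted p-values from 0.000543 to 0.00136. Between genotypes after bleomycin, 3 of the 4 were called higher in KOT: cluster 10545187 by 3.22 (SE 0.37), cluster 10545196 by 3.22 (SE 0.39) and cluster 10545184 by 3.16 (SE 0.35), each with an adjusted p of 0.0145. The last one, 10545198, gave 2.60 (SE 0.40, adjusted p = 0.0626). Cluster 10545194, which holds Igkv4-59 and Igkv4-80 but no constant region, was also called, at 2.20 (SE 0.31, adjusted p = 0.0397), with 9.30, 9.07 and 8.59 in KOT mice against 6.56, 6.35 and 7.45 in WTT mice. It fell in WTT against WTC by -2.09 (adjusted p = 0.00119).

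Variable-segment clusters of the kappa class behaved less evenly. Igkv10-96 (cluster 10545173) followed the common pattern, with 12.61, 11.91 and 11.44 in KOT and 8.21, 7.73 and 8.20 in WTT, against 10.71, 11.04 and 12.89 in KOC and 12.59, 11.04 and 9.74 in WTC. Its difference was -3.08 (adjusted p = 0.0074) in WTT against WTC and 3.94 (SE 0.67, adjusted p = 0.102) in KOT against WTT. The largest kappa difference between genotypes was that of Igkv19-93 in cluster 10545177, 4.19 (SE 0.65, adjusted p = 0.0626), with 11.004, 13.70 and 12.27 in KOT against 7.66, 8.06 and 8.68 in WTT. A second Igkv19-93 cluster, 10545182, gave only 0.74 (SE 0.82, adjusted p = 0.788), so the 2 clusters of that symbol disagree.

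The largest kappa falls in WTT against WTC were in clusters with several symbols. Clusters 10538880 and 10538921 hold Igkv9-120 and Igkv1-117 and also Map3k20, a kinase gene outside the antibody loci, and gave -3.41 (SE 0.81, adjusted p = 0.0115) and -3.15 (SE 0.64, adjusted p = 0.00522). Cluster 10545247, with Igkv6-14 and Igkv6-15, gave -3.17 (SE 0.69, adjusted p = 0.00792). In KOT against WTT these 3 gave 3.11, 3.43 and 2.86, none past the threshold. The 5 other called clusters of the class, among them Igkv8-30 (-2.98), Igkv5-43 (-3.04) and Igkv4-55 (-1.49), had adjusted p-values between 0.00373 and 0.0385.

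Several variable segments stood high in 1 mouse of a group. Igkv4-91 (10545180) read 8.51, 8.92 and 12.25 in KOT and 6.27, 6.28 and 10.78 in WTT, so that WTT 164 and KOT 81 were the highest of the 12 mice. Igkv19-93 (10545182) reached 11.91 in KOC 67 against 7.97 in the next KOC mouse, and Igkv5-43 reached 10.97 there against 7.68. Igkv6-20 reached 10.91 in KOC 55, against 8.57 in the next KOC mouse. A gap of more than 2 log2 units between the highest mouse and the next of its group occurred in 10 of the 33 clusters, 5 of them kappa clusters. The share of all clusters with such a gap was not computed, so the count describes the 33 alone. The other clusters with such a gap were Jchain, Ighm (10402991), Igha (10403063) and the heavy clusters 10403009 and 10403021. Clusters 10403009 and 10403021 also hold a variable segment. Jchain and these Ighm and Igha clusters hold none, so such gaps were not confined to clusters with variable segments. Single-symbol clusters had none called in KOT against WTT, and 10 of 17 were called lower in WTT against WTC.

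Lambda light chains were read by 2 clusters that both hold Iglv1, Iglv2 and Iglc1. Cluster 10438405 read 10.62, 10.68 and 9.93 in KOT and 9.27, 9.01 and 9.14 in WTT, against 9.82, 10.79 and 11.78 in KOC and 11.48, 10.74 and 10.64 in WTC. Lambda fell in WTT against WTC in both, by -1.81 (SE 0.40, adjusted p = 0.00832) and -1.53 (SE 0.41, adjusted p = 0.0214). KOT minus WTT was 1.27 (SE 0.40, adjusted p = 0.332) and 1.24 (SE 0.41, adjusted p = 0.343), with no overlap of the groups. The lambda differences were numerically smaller than the heavy and kappa medians, a contrast that was not tested.

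Igll1, whose product stands in for the light chain in developing B cells of the bone marrow, was the member that varied least. It read 6.85, 6.93 and 6.79 in KOT and 6.67, 7.10 and 6.83 in WTT, against 6.89, 6.91 and 6.63 in KOC and 6.96, 7.08 and 7.07 in WTC. KOT minus WTT was -0.01 (95% interval -0.25 to 0.23) and WTT minus WTC -0.17 (95% interval -0.42 to 0.07).

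The second question is whether the genotypes differed after bleomycin. Across the 33 clusters, 6 were called higher in KOT than in WTT and none lower, where 0.0427% of all clusters, 10 in number, were called higher. These are the 2 heavy and 4 kappa clusters given above. By their accessions the 2 heavy clusters fall in 1 linked group and the 4 kappa clusters in 1 other. The 6 calls are therefore not independent of each other. This comparison and that of WTT with WTC use the same WTT mice, so their values are not independent. The median difference was 3.07 (log2), about 8.40-fold, against -0.01 over all clusters. In 31 of 33 clusters the 3 KOT values all exceeded the 3 WTT values, a pattern of 6.92% of all clusters, the exceptions being Igkv4-91 and Igll1. An unadjusted p under 0.05 was reached by 29 of 33, against 4.27% of all clusters in that direction. With 3 mice against 3, an exact permutation test of 1 cluster cannot give a two-sided p below 0.1.

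The SE of these clusters was large, with a median of 0.64 against 0.10 over all clusters. The count of calls turned on single mice: no cluster was called without KOT 72 or without WTT 161, and 1 without WTT 160. With a term for animal number (under 100 or above it) there were 0 calls, against 1 over all clusters. The median over the 33 clusters was then 1.35, with 31 of them positive. That term is set by WTC 76 alone against WTC 157 and WTC 158, and so applies the difference of 1 PBS mouse to the bleomycin mice. The LPE test called 31 of 33 higher in KOT, where it called 0.555% of all clusters.

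**Figure D3:**
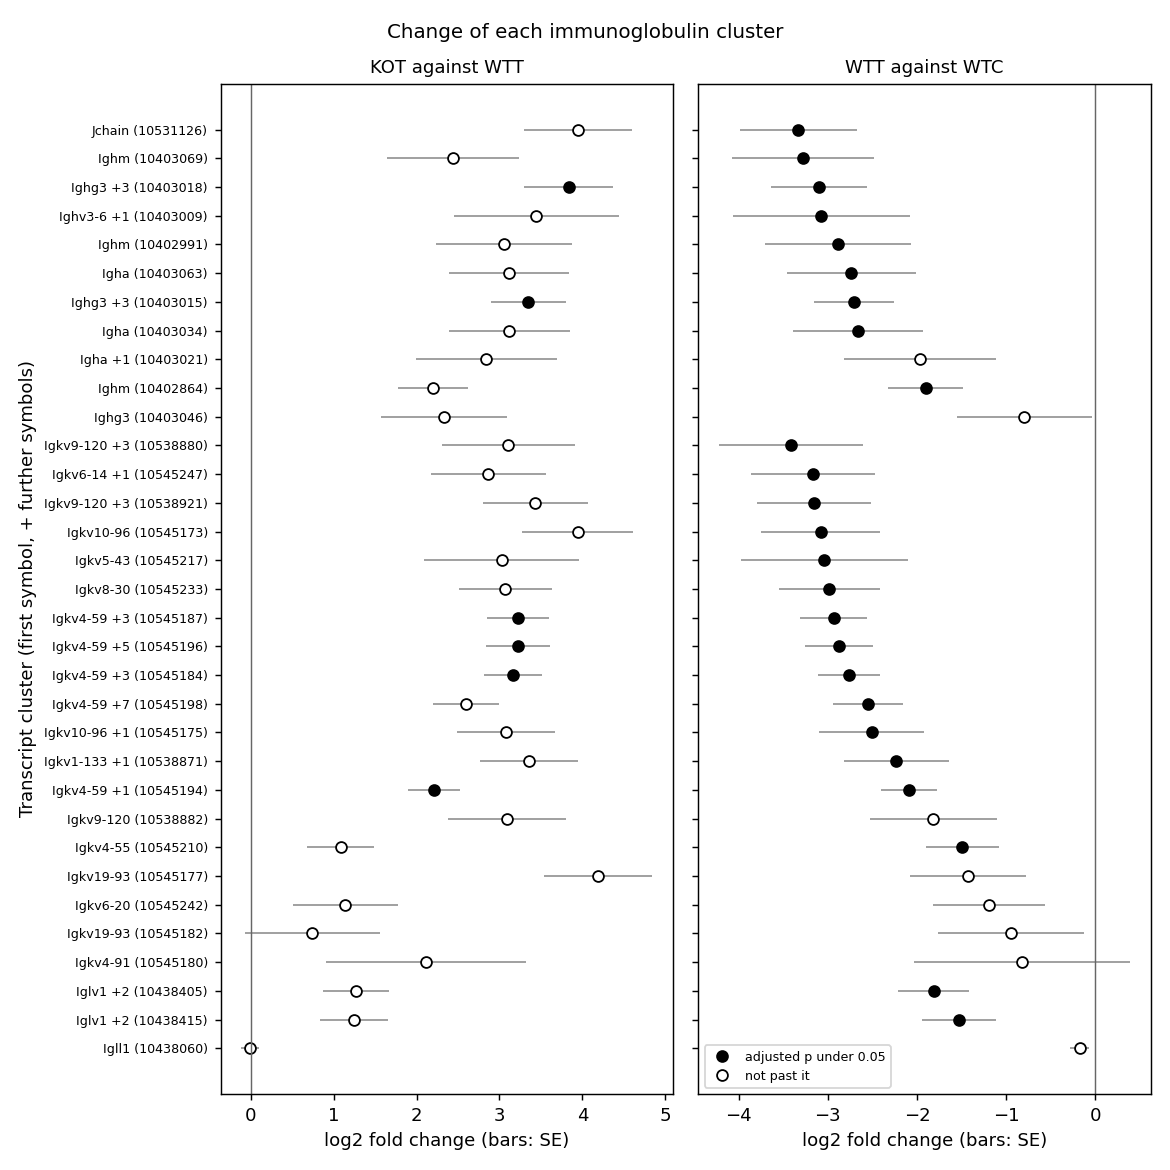
Log2 fold change with its SE (x axes) of each of the 33 clusters (rows) for KOT against WTT (left) and WTT against WTC (right); filled points have a limma adjusted p under 0.05. On the left 6 points are filled, all above 0, and on the right 25 are filled, all below 0.

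After PBS alone no difference between genotypes passed the test. None of the 33 clusters was called in KOC against WTC (0.0128% of all clusters were). An unadjusted p under 0.05 was reached by 3, each higher in KOC, against 2.94% of all clusters in that direction. The LPE test called 8 higher in KOC (0.346% of all clusters) and 2 lower (1.44%). The median difference was 0.27 and the range -1.42 to 2.45, the top being Ighg3. Igkv19-93 (10545177) was the other cluster with every KOC mouse above every WTC mouse (1.84, SE 0.65, adjusted p = 0.437; 6.88% of all clusters showed that order), though KOC 55 and WTC 76 both read 10.84.

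Bleomycin in Fra-1-/- lungs likewise gave no call: none of 33 clusters passed in KOT against KOC, where 7.42% of all clusters were called higher and 7.98% lower. Here 2 kappa clusters had an unadjusted p under 0.05 with KOT higher, against 14.5% of all clusters. The LPE test called 9 higher in KOT (4.44% of all clusters) and 5 lower (3.63%). The median was 0.05, with 17 clusters positive and 16 negative. The extremes were Igkv6-20 at -1.37 (SE 0.63, adjusted p = 0.176) and Igkv4-91 at 2.71 (SE 1.21, adjusted p = 0.164).

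Whether the effect of bleomycin depended on genotype was tested with the interaction term of the fit, KOT minus KOC less the same difference in Fra-1+/+ mice. No cluster passed, among the 33 or on the whole array, and the lowest adjusted p among the 33 was 0.754. An unadjusted p under 0.05 was reached by 22 of 33, all positive, against 2.99% of all clusters in that direction. The median was 2.43 (log2), and Jchain gave 3.67 (SE 0.93, adjusted p = 0.845). A fall in WTT that passed the test and a change in KOT that did not are therefore not shown to differ by the adjusted test.

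Within groups the clusters moved together by mouse. WTC 76 was the highest WTC mouse in 29 of 33 clusters, by a median of 1.43 over the mean of the other WTC mice, while it was highest in 34.5% of all clusters. KOC 67 was the highest KOC mouse in 29 of 33 and the highest of all 12 mice in 15. KOT 72 was highest of its group in 18, and WTT 164 in 22. Without WTC 76 and KOC 67 together, 14 clusters were called in KOT against WTT, where the fold changes are the same and only the fit's spread and moderation differ, and 25 in WTT against WTC. Of all 23410 clusters, that fit called 34 and 4414.

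The same mice stood high in other lymphoid genes. The mean of 15 B cell genes was 8.99, 8.27 and 8.26 in KOT and 8.03, 7.39 and 7.64 in WTT, against 8.28, 8.67 and 9.50 in KOC and 9.48, 7.995 and 8.83 in WTC. These means overlapped between WTT and WTC, since WTT 160 lay above WTC 157, while those of the antibody classes did not. Gene by gene, all 15 differences were negative in WTT against WTC. In 9 of the 15 every WTT mouse lay below every WTC mouse, as in 17.4% of all clusters. The mean of 5 lymphoid stroma genes (among them Cxcl13, a chemokine that draws B cells) was 9.23 in WTC 76 against 7.39 and 7.44 in the other WTC mice, and 8.94 in KOC 67 against 7.43 and 7.52 in the other KOC mice. Of these 5 genes, Cxcl13 alone was called in WTT against WTC, higher (2.27, adjusted p = 0.0443), where 10.2% of all clusters were called higher. These lists overlap in no gene with the 33 clusters, and their part in the antibody values was not tested.

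**Figure D4:**
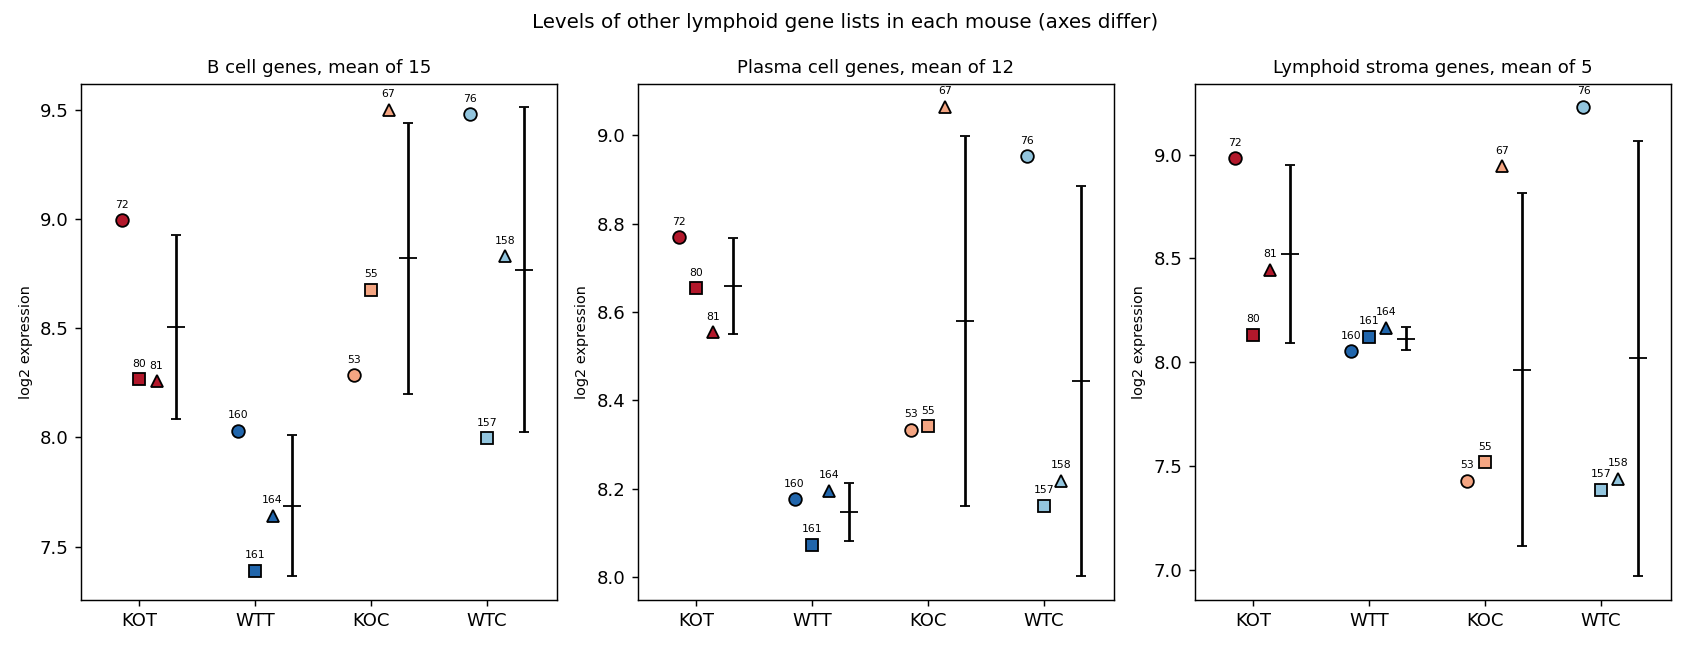
Mean log2 expression (y axes, scaled by panel) of the B cell, plasma cell and lymphoid stroma genes in each mouse, with animal numbers, and the group mean ± SD (n = 3). KOC 67 and WTC 76 lie highest of their groups in all 3 panels, and the WTT values span less than those of KOC or WTC.

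Among B cell genes, 6 of 15 fell in WTT against WTC (11.3% of all clusters did) and none rose, with a median of -1.11. They were Cd79a (-1.56) and Cd79b (-1.56), which carry the signal of the B cell receptor, Fcer2a (-1.77), Bank1 (-1.38), the transcription factor gene Ebf1 (-0.78) and Fcmr (-1.70), the IgM receptor. The count was 2 without WTT 161, 3 without WTT 164, WTC 76 or WTC 158, 10 without KOC 67 and 11 without WTC 157. Over all clusters these 6 fits called 3492, 3386, 4370, 3441, 4997 and 3304, against 5027 with all mice. In KOT against KOC, Ebf1 was the 1 gene of the 15 that fell (-0.58, adjusted p = 0.0344), where 7.98% of all clusters were called lower. None of the 15 passed there without WTC 76 and KOC 67. In KOT against WTT none passed, although all 15 differences were positive (median 0.84, Cd79a 1.34 with adjusted p = 0.332) and 11 had no overlap of the groups, as in 6.92% of all clusters. The LPE test called 6 of the 15 higher in KOT (0.555% of all clusters) and 14 lower in WTT than in WTC (4.47%). Their medians were less than those of the heavy and kappa clusters in both comparisons, a contrast that was not tested.

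Plasma cell genes gave no limma call in the 4 comparisons with all 12 mice. The LPE test called 4 of 12 higher in KOT than in WTT (0.555% of all clusters) and 2 lower in WTT than in WTC (4.47%). Without WTC 76 and KOC 67, limma called 4 higher in KOT than in WTT, 3 higher and 1 lower in WTT than in WTC, and 4 higher in KOT than in KOC. Of all 23410 clusters, that fit called 32 higher in KOT than in WTT. It called 2095 higher and 2319 lower in WTT than in WTC, and 1630 higher in KOT than in KOC. Over 12 genes the median was 0.21 in KOT against WTT and -0.15 in WTT against WTC. Those nearest to the antibody pattern were Mzb1, a chaperone gene of antibody-secreting cells (1.40, SE 0.39, adjusted p = 0.296, and -1.11), Pou2af1, the B cell coactivator of octamer factors (1.18 and -1.07), Derl3 (1.09 and -0.89) and the transcription factor gene Irf4 (1.08 and -0.67). Sdc1, Xbp1, Sec11c and Creld2, which other lung cells also express, differed by 0.09 to 0.18 in KOT against WTT. In WTT against WTC these 4 gave 0.03 to 0.26, above 0 and so unlike the antibody clusters. Fkbp11 gave -0.09 and 0.22. Of the 12 differences, 11 were positive in KOT against WTT, while 6 were positive and 6 negative in WTT against WTC.

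Of the clusters with 1 symbol outside the 33, Mzb1 had the profile most like that of Jchain over the 12 arrays, with a Pearson r of 0.93. The next were Man1b1 (0.92), Sclt1 (0.91), Pms2 (0.91), Adck1 in cluster 10545237 (0.90), Derl3 (0.90), Dnah7b (0.89) and Pou2af1 (0.89). The 10 heavy clusters correlated with Jchain at 0.60 to 0.99 and the 19 kappa clusters at 0.18 to 0.99, with a median of 0.89 in both classes, against -0.11 over all clusters. All these points share the same 12 mice in 4 groups, and the values are a description.

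Among receptors that bind or carry antibodies, several went the other way. After bleomycin the Fc receptor genes Fcgr1 (2.53), Fcgr2b (1.44), Fcgr3 (1.51), Fcgr4 (1.33) and Fcer1g (0.94) rose in WTT against WTC, 5 of the 10 genes of this list, where 10.2% of all clusters rose. The same 5 rose in KOT against KOC, by 0.88 to 2.34, where 7.42% of all clusters rose. Pigr fell in both, by -2.03 (adjusted p = 0.00872) in WTT against WTC and -1.54 (adjusted p = 0.0409) in KOT against KOC, and Fcmr, also on this list, fell in WTT against WTC. Of all clusters, 11.3% were called lower in WTT against WTC and 7.98% in KOT against KOC. None of the 10 passed in KOT against WTT, where Pigr gave 0.97 (adjusted p = 0.482).

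A list of 9 genes covered V(D)J recombination, which assembles antibody genes in developing lymphocytes, and the surrogate light chain. Its 1 call was Vpreb3, lower in WTT than in WTC (-1.34, adjusted p = 0.00272), where 11.3% of all clusters were called lower. The surrogate light chain genes Vpreb1 and Vpreb2 gave -0.07 (adjusted p = 0.756) and 0.13 (adjusted p = 0.334) there. No recombination gene passed. Rag1 and Rag2, the recombinase genes, averaged 5.49 and 3.97 in KOT and 5.69 and 4.06 in WTT. None of 9 genes of class switching and the germinal centre passed in any comparison. Of 9 survival ligands and receptors, Tnfsf13b, which encodes the B cell survival factor BAFF, passed in KOT against KOC (0.39, adjusted p = 0.0332) and gave 0.31 (adjusted p = 0.363) in KOT against WTT. It was the 1 call of its list in KOT against KOC, where 7.42% of all clusters were called higher.

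Among the other cell types, 1 of 7 T cell genes, Cd2, fell in WTT against WTC (-1.02, adjusted p = 0.0064), where 11.3% of all clusters did. All 7 T cell differences were positive in KOT against WTT (median 0.55), although none passed the limma test. For 5 of these genes the KOT and WTT values did not overlap, as in 6.92% of all clusters in that direction. The interaction term was likewise positive in all 7 and passed in none. The mean of 6 neutrophil genes was 7.96, 7.39 and 8.27 in KOT and 7.88, 8.73 and 9.43 in WTT, against 7.92, 7.82 and 7.65 in KOC and 7.87, 8.07 and 7.86 in WTC. The list means of KOT overlapped with those of WTT. All 6 differences were negative in KOT against WTT (median -0.88). None of the 6 passed the limma test in the 4 comparisons, while the LPE test called 2 lower in KOT than in WTT (0.15% of all clusters) and 4 higher in WTT than in WTC (3.45%).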

How the data were processed

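Total RNA of 12 left lungs was hybridised to Affymetrix MoGene 1.0 ST arrays. The deposited values are log2 expression per transcript cluster, which the authors quantile normalised over all arrays and summarised per cluster by RMA. The labels name Affymetrix Power Tools for this, with a version not given in the sources used here. They run from 2.32 to 14.7. Quantile normalisation forces equal distributions and would hide a shift shared by most genes. No sample column was left unused. Symbols came from the platform annotation: of 35556 clusters, 21789 carry 1 symbol, 1621 several and 12146 none. Mice were grouped by their labels. Replicates are separate mice, and 3 a group limits the precision.

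All 4 groups entered 1 limma fit (version 3.58.1, R 4.3.3; lmFit and eBayes) on the 23410 clusters with a symbol, with two-sided Benjamini-Hochberg adjusted p over all of them and a threshold of 0.05. The code was tested on simulated data. The methods' LPE test at 0.01, other scalings, filters, array weights, moderation, a term for animal number and the omission of each mouse were alternatives. Leaving out WTC 76 with KOC 67 was added after seeing the data.

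The members, gene lists and naming rule were chosen with earlier results of these data known. Named were Jchain, Igll1, clusters with a constant region, members past the threshold, the 3 largest differences per class in KOT against WTT and WTT against WTC, and up to 4 list genes of smallest p. Igkv4-91, Igkv5-43, Igkv6-20 and the second Igkv19-93 cluster were singled out after their values were seen, as were the named genes of the lists beyond that rule. A list gene was measured where 1 cluster names it alone. Tables used Python 3.11.15, pandas 2.3.3 and numpy 2.4.6.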

Additional observations from a re-analysis of the deposited data

How the results depend on the processing

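In KOT against WTT the 6 calls became 31 with the LPE test, 13 with only the 6 arrays compared, 10 with array weights, 14 without WTC 76 and KOC 67, 3 with all clusters of the array tested, and 0 with trended and robust moderation, with the animal number term, at an adjusted p under 0.01 and among clusters with 1 symbol. Over all clusters tested the 10 calls became 165 with the LPE test, 23 with the 6 arrays and 24 with array weights. They became 34 without WTC 76 and KOC 67, and 6 with all clusters of the array. Trended and robust moderation gave 3, and the animal number term and the adjusted p under 0.01 gave 1 each. Leaving out 1 mouse gave 0 to 9 calls (0 without KOT 72 or WTT 161, 1 without WTT 160, 3 without WTC 157, KOC 55, KOT 80 or KOT 81). Over all clusters that omission gave 1 to 16. In WTT against WTC the 25 calls became 14 at an adjusted p under 0.01 and 10 among clusters with 1 symbol, 17 with the animal number term, and ran from 17 (without WTT 161 or WTC 76) to 26 with 1 mouse left out. Over all clusters the 5027 calls became 2363 at an adjusted p under 0.01 and 4370 with the animal number term. With 1 mouse left out they ran from 3304 to 5211. The LPE test called 10 in KOC against WTC and 14 in KOT against KOC, where array weights called 1 and leaving out 1 mouse 0 to 1 (1 without KOC 53). Over all clusters the LPE test called 418 and 1889 in these comparisons. In KOT against KOC array weights called 7118 of all clusters, and leaving out 1 mouse 1854 to 3945. Cyclic loess and equal array medians changed no count of these calls, although equal medians turned the 1736 higher and 1868 lower calls of all clusters in KOT against KOC into 1341 and 2408. The animal number term is set by WTC 76 alone, and in WTT against WTC its counts over all clusters equal those without WTC 76.

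Among the named differences followed over the settings, signs turned in 5, none past the threshold. With the animal number term KOT minus WTT was -0.14 in Ighm (10403069), against 2.44 without that term, and -0.12 in Igkv19-93 (10545182), against 0.74. KOC minus WTC of Jchain was -0.38 by the LPE test, -1.12 with the animal number term, -0.43 without WTC 158 and -0.43 without KOC 67 (-0.43 to 0.97 with 1 mouse left out), and its KOT minus KOC was -0.043 without KOC 55 (-0.043 to 1.05). The difference between responses of Ighg3 was -0.12 and turned to 0.031 with array weights, 0.05 without WTC 158, 0.50 without KOC 53 and 0.74 without KOT 80 (-0.96 to 0.74 with 1 mouse left out). Medians over all 33 clusters turned as well. That of KOC minus WTC went from 0.27 to -0.42 without KOC 67, with 24 clusters negative against 11. It was -0.69 with the animal number term and -0.21 without WTC 158. That of KOT minus KOC went from 0.05 to -0.19 without KOC 53, -0.06 without KOC 55, -0.08 without KOT 72 and -0.05 without KOT 80. The medians of KOT minus WTT and WTT minus WTC kept their signs in every setting. The cause of these turns was not tested. No paired analysis was possible because the animal numbers differ between all groups. Detection calls per cluster were not used here. The filter asked for a mean of at least 6 in any 1 group, and all 33 clusters passed it. Its unchanged counts therefore say nothing of dim values within a group. In WTT the group means were 4.68 for Igkv5-43, 5.05 for Igkv8-30 and 5.11 for Ighg3 (10403046).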

Other observations

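Clusters without a symbol can lie between the immunoglobulin clusters in the array's own numbering, whose order carries no stated meaning in the sources used here. From the lowest to the highest member number of 3 runs (10402864 to 10403069, 10538871 to 10538921 and 10545173 to 10545247) there were 46 such clusters. In 19 of them (41.3%) every WTT mouse lay below the other 9 mice, against 2.70% of all 35556 clusters of the array. In a limma fit to all clusters of the array, 15 of the 46 were called lower in WTT than in WTC and none higher, and none was called in KOT against WTT, where the largest difference was 5.13. By run, 9 of 24, 2 of 7 and 8 of 15 showed the WTT pattern.

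Cluster 10545237 carries the single symbol Adck1 in the platform annotation, and its number lies between those of kappa clusters. It read 9.60, 7.49 and 7.74 in KOT and 3.83, 4.11 and 4.91 in WTT, against 9.03, 7.84 and 8.95 in KOC and 7.56, 8.37 and 6.05 in WTC. WTT minus WTC was -3.04, a size seen among the kappa clusters, and the WTT mice lay lowest.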
